A study of Bos taurus with 12 samples.

Results

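The transcripts described here are those of ATF4, the transcription factor that cells deploy when amino acids run short, and of 9 genes known as its targets or effectors, namely DDIT3, ASNS, TRIB3, CHAC1, SESN2, PHGDH, PSAT1, PSPH and SHMT2. They were taken by name from the 12787 genes to which a probe of the bovine array could be assigned, and every probe of each gene was read, 20 of the 43653 non-control probes. The samples were biopsies of the mammary gland of 6 lactating Holstein cows, each taken from every cow on day 0 under a lactation diet offered without limit (CONT) and again on day 6 of a feed allowance cut to 50% of the net energy required for lactation (REST). CONT and REST thus held 6 arrays each, and a cow was compared with itself. All were multiparous animals in midlactation, and the period of restriction always followed the control period, so that diet and time cannot be told apart. The design note of the series counts 5 cows whereas the sample labels name 6, and all 6 labelled animals were used. The methods mention that a Holstein animal with mastitis was left out, and the labels do not tell whether its arrays are among those 12.

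In the amino acid response, kinases that sense uncharged transfer RNA, misfolded protein or other stresses phosphorylate the translation factor eIF2, which slows protein synthesis in general but favours translation of the ATF4 message. The ATF4 protein then switches on genes that make, import and activate amino acids, together with stress regulators such as DDIT3 and TRIB3. The lactating mammary gland, which exports large amounts of milk protein, draws heavily on these supplies, and because ATF4 is governed largely at translation, its transcript and those of its targets need not move together.

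Signal is given throughout as log2 processed spot intensity minus the 75th percentile of the same array, so that 0 is a spot as bright as that percentile, and a change is REST minus CONT on this log2 scale. A probe was tested where the scanner software called it well above background on all arrays of CONT or of REST, which held for 16 of the 20 probes and 9 of the 10 genes, SESN2 being the exception, among 19406 probes and 7932 genes in all. A gene is represented by its tested probe of highest mean signal, and adjusted p-values come from limma with the cow as a block and the Benjamini-Hochberg correction over all tested probes, a difference being called at an adjusted p under 0.1. Each slide of 4 arrays carried both periods of a pair of cows, slide 1 those of cows 1 and 2, slide 2 those of cows 3 and 4, and slide 3 those of cows 5 and 6. The arrays of slide 3 were dimmer, with a 75th percentile intensity of 73.2 to 117 against 252 to 390.0 on the others and 41.9 to 48.0% of spots well above background against 61.8 to 67.9%. The 75th percentile was also higher in REST in 6 of 6 cows, by 0.30 ± 0.10 log2 units (SD, n = 6, two-sided exact sign-flip p = 0.03125, the smallest that 6 pairs allow), and this shift is removed from the values below. In whole tissue, fewer cells of a type and less RNA per cell cannot be told apart.

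Of the 9 tested genes, DDIT3 was the one called, and it was higher in REST. Across all tested genes 6.95% were called higher and 9.27% lower, so 1 of 9 is near the background share. Across the 9 genes 7 had a mean change above 0, and their median change was 0.17, beside -0.0090 over all tested genes. Single cows decided that median, which was 0.0061 without cow 1 and 0.53 without cow 6. After normexp background correction with the percentile shift the means of ATF4 (0.29), ASNS (0.34) and PSAT1 (0.25) were larger than those given below and that of CHAC1 (-0.26) smaller in size, none of them called. Other settings gave smaller means, also not called, with ATF4 at 0.065 after quantile normalization and PSPH at 0.30 after normexp with quantile normalization. The mean hid large and opposite changes in single cows, which are described after the genes themselves. The range of the REST arrays overlapped that of the CONT arrays for all 9 genes, as it did for most genes on the array, since 0.618% of tested genes lay wholly higher and 1.66% wholly lower in REST.

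**Figure D1:**
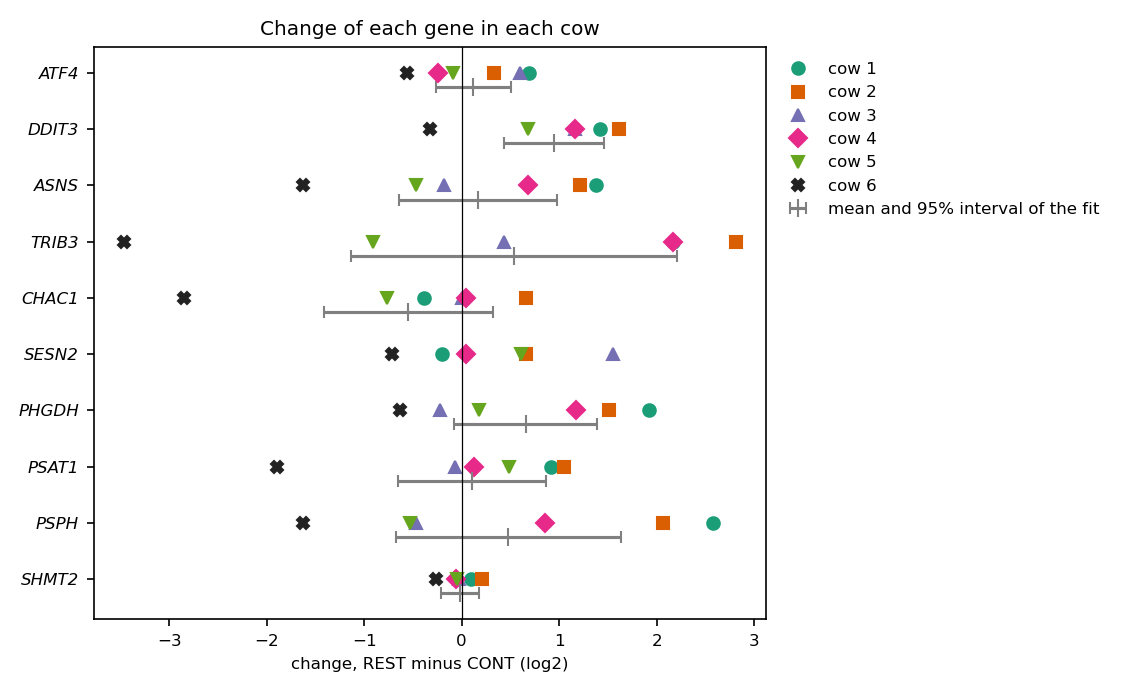
Change of each of the 10 genes in each of 6 cows (x axis, REST minus CONT, log2; y axis, gene), with the mean and 95% interval of the paired fit as a grey bar for the 9 tested genes. The interval of DDIT3 (0.44 to 1.46) lies above 0 while the others include 0, and cow 6 is the leftmost point in every row. Points from spots not well above background are not marked, and these are cows 5 and 6 for SESN2 (both periods) and CHAC1 (REST). The points of cows 1 and 4 coincide for TRIB3, and those of cows 3 and 4 for DDIT3.

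ATF4, the regulator itself (RefSeq transcript NM_001034342), had a signal of 6.48 at the lowest, 6.93 at the median and 7.48 at the highest in CONT, and of 6.58, 7.15 and 7.51 in REST. The groups covered almost the same range, and the gene was higher in 3 cows and lower in 3. Its mean change was 0.12 (SE 0.17, n = 6, 95% interval -0.26 to 0.50, adjusted p = 0.675). The other ATF4 probes gave 0.28 (adjusted p = 0.322) and 0.029 (adjusted p = 0.921), so no ATF4 probe was called. By cow, the change of the brightest probe ran from -0.56 in cow 6 to 0.69 in cow 1, and its mean was 0.0061 without cow 1 and 0.26 without cow 6.

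DDIT3 (NM_001078163), which encodes CHOP, a transcription factor that ATF4 induces and that is known for promoting cell death when stress persists, rose. Its signal in CONT was 1.13 at the lowest, 1.93 at the median and 2.88 at the highest, and in REST 1.98, 2.79 and 3.89. REST values sat higher as a group but overlapped with CONT, whose highest value, that of cow 6, lay above the REST median. The mean change was 0.95 (SE 0.23, n = 6, 95% interval 0.44 to 1.46, adjusted p = 0.0408), a 1.93-fold higher signal. DDIT3 was higher in 5 of 6 cows, by 1.41 in cow 1, 1.61 in cow 2, 1.17 in cow 3, 1.16 in cow 4 and 0.68 in cow 5, and was lower by 0.33 in cow 6 (a change of -0.33). The second DDIT3 probe gave 1.11 (SE 0.25, adjusted p = 0.0347) and the same sign in every cow. The call depended on the settings and on which cows were included, since the adjusted p was 0.185 without the cow as a block, a fit that called 1.6% of all tested genes higher and 2.81% lower, and 0.106, 0.119 and 0.114 when cow 1, cow 2 or cow 4 was left out, whereas it was 0.0859, 0.0604 and 0.0172 without cow 3, cow 5 or cow 6. It was also lost with slide as a block (0.143), with no filter on dim probes (0.148) and by the paired test without moderation (0.138). Within slides, the mean of the 2 cows was 1.51 on slide 1, 1.16 on slide 2 and 0.17 on the dimmer slide 3.

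TRIB3 (NM_001076103) encodes a pseudokinase that ATF4 induces and that in turn restrains ATF4. Its signal ran from -0.50 through a median of 0.15 to 2.22 in CONT, and from -1.24 through 0.90 to 3.22 in REST. The REST range enclosed the whole CONT range, with cows 2 and 4 at its top and cows 5 and 6 at its bottom. TRIB3 differed by 2.17 in cow 1, 2.81 in cow 2, 0.43 in cow 3, 2.17 in cow 4, -0.91 in cow 5 and -3.46 in cow 6. Its mean change of 0.54 (SE 0.74, n = 6, 95% interval -1.14 to 2.21, adjusted p = 0.673) was smaller than its error, and ranged from 0.080 without cow 2 to 1.33 without cow 6. All 12 arrays measured this probe well above background, including both of cow 6. The other TRIB3 probes were too dim to be tested, being above background on 5 CONT and 4 REST arrays and on 1 CONT and 2 REST arrays.

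CHAC1 (NM_001098882), an enzyme that breaks down glutathione, had a mean change of -0.55 (SE 0.38, n = 6, 95% interval -1.42 to 0.32, adjusted p = 0.381). Its signal was between -1.89 and 0.13 in CONT and between -2.72 and -0.39 in REST, so that the groups overlapped. The REST signals of cows 5 and 6 were not well above background, and the size of their differences, -0.77 and -2.85, is therefore uncertain. So is the mean they carry, which was -0.089 without cow 6. SESN2 (NM_001024507), a stress-inducible sensor of leucine that restrains the growth kinase mTORC1, was well above background on 4 CONT and 4 REST arrays. Its spots in cows 5 and 6 were not well above background in either period. In the other 4 cows SESN2 differed by -0.21, 0.66, 1.55 and 0.046, and it was not tested.

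**Figure D2:**
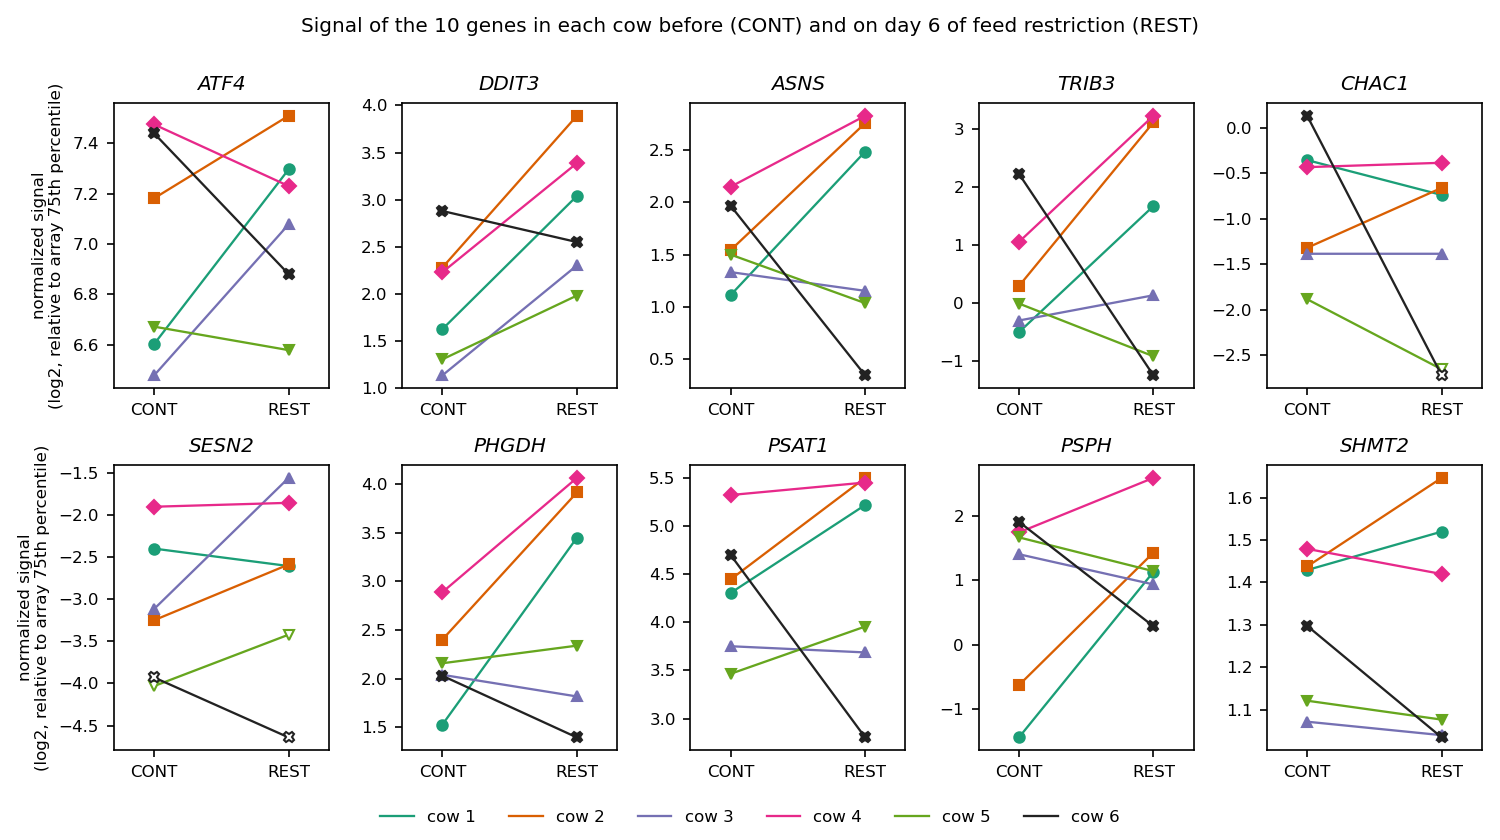
Normalized signal (y axis, log2 relative to the array's 75th percentile, with its own scale in each panel) of the probe shown for each gene in CONT and REST, with 1 line per cow and open symbols for spots not well above background. The lines of cow 6 fall in every panel, and those of cows 1 and 2 rise steeply for ASNS, TRIB3, PHGDH and PSPH (by 1.22 to 2.81).

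ASNS (NM_001075653), which makes asparagine and is a classical readout of amino acid shortage, had a signal of 1.11, 1.52 and 2.15 (lowest, median and highest) in CONT and of 0.34, 1.82 and 2.83 in REST. Its levels were close together before restriction and spread out on both sides during it, the SD growing from 0.39 to 1.06. The gene was higher by 1.37 in cow 1, 1.22 in cow 2 and 0.68 in cow 4, and its change was -0.18 in cow 3, -0.46 in cow 5 and -1.62 in cow 6. The mean change was 0.17 (SE 0.36, n = 6, 95% interval -0.65 to 0.98, adjusted p = 0.795), and it was -0.074 without cow 1 and 0.53 without cow 6. The second ASNS probe gave a mean of 0.15 (adjusted p = 0.848), and its sign was that of the first in all 6 cows, although its REST spot in cow 6 was not well above background.

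Serine is made from a glycolytic intermediate by PHGDH (NM_001035017), PSAT1 (NM_001102150) and PSPH (NM_001046355) in turn. PHGDH, the entry step, had a signal of 1.53, 2.10 and 2.89 (lowest, median and highest) in CONT and of 1.39, 2.89 and 4.06 in REST. Its REST values again reached beyond CONT at both ends, with cows 1, 2 and 4 above every CONT value and cow 6 below every one. The mean change of PHGDH was 0.66 (SE 0.32, n = 6, 95% interval -0.08 to 1.39, adjusted p = 0.224), and by cow it was 1.92, 1.51, -0.22, 1.18, 0.18 and -0.63 for cows 1 to 6. Without cow 1 the mean was 0.40 and without cow 6 it was 0.91.

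PSAT1, the second step, had a mean change of 0.10 (SE 0.34, n = 6, 95% interval -0.66 to 0.87, adjusted p = 0.868), with CONT between 3.47 and 5.32 and REST between 2.81 and 5.50. Its changes of 0.91 in cow 1 and 1.05 in cow 2 were offset by -1.89 in cow 6, without which the mean was 0.50, and without cow 2 it was -0.085. A dimmer PSAT1 probe gave a mean of the other sign, -0.13 (adjusted p = 0.832), and its spot passed the background criterion on 5 of 6 REST arrays. PSPH, the last step, had a mean change of 0.48 (SE 0.51, n = 6, 95% interval -0.67 to 1.63, adjusted p = 0.575), which was 0.058 without cow 1, 0.16 without cow 2 and 0.90 without cow 6. Like ATF4, PSPH was more spread in CONT (-1.45 to 1.91, SD 1.44) than in REST (0.28 to 2.60, SD 0.76). Cows 1 and 2, the lowest in CONT, were higher by 2.58 and 2.06 in REST, and cow 6, the highest in CONT, changed by -1.63. The second PSPH probe had the same sign in every cow and a mean change of 0.49 (adjusted p = 0.534).

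SHMT2 (NM_001034282), the mitochondrial enzyme that turns serine into glycine and feeds its carbon into the folate cycle, differed least. Its signal was 1.07 to 1.48 in CONT and 1.03 to 1.65 in REST, its mean change was -0.017 (SE 0.084, n = 6, 95% interval -0.21 to 0.17, adjusted p = 0.919), and by cow the change of this probe ran from -0.26 in cow 6 to 0.21 in cow 2. A second probe had a mean of -0.021 (adjusted p = 0.919) but differed more by cow, from -0.44 in cow 6 to 0.31 in cow 5, and shared its sign with the first in 2 of 6 cows. The sign of so small a mean depended on the background correction and on the cows included, being 0.081 after normexp correction with the percentile shift and 0.033 without cow 6.

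The change of these genes differed widely between cows. Over all tested genes the SD of the change across 6 cows had a median of 0.248 and a 95th percentile of 0.640. It was 2.39 for TRIB3, larger than for any other tested gene, and 1.64 for PSPH, which 4 genes exceeded. CHAC1 (1.22), ASNS (1.14), PSAT1 (1.07) and PHGDH (1.03) also lay above the 99th percentile, and DDIT3 (0.70) lay at the 96.2nd. ATF4 itself (0.50) was at percentile 89.7 and SHMT2 (0.16) at 19.8. These are descriptions, without a test, and 1 cow carried much of the upper end. With cow 6 left out, 4 of the 9 genes instead of 7 lay above the 95th percentile, and those were TRIB3, PSPH, PHGDH and ASNS.

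**Figure D3:**
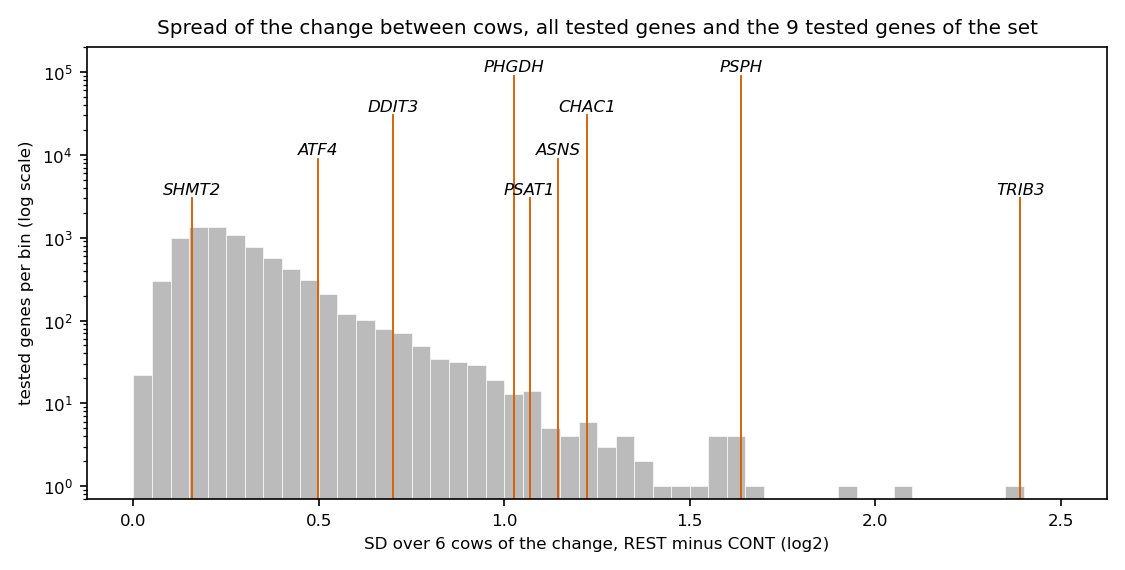
Number of tested genes (y axis, log scale) by the SD over 6 cows of the change between REST and CONT (x axis, log2), with the 9 tested genes marked by lines whose heights only separate the names. TRIB3 stands at 2.39, beyond every other gene, while SHMT2 at 0.16 lies in the bulk of the distribution.

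Some cows kept their place in the order of changes across most of these genes, others did not. Cow 6 had the lowest change of the 6 cows for 9 of 9 tested genes, against 16.5% of all tested genes, although the REST spot of CHAC1 in cow 6 was not well above background. The highest change was in cow 1 for 4 genes and in cow 2 for 5, and these cows held the 2 highest places for 6 of the 9 genes, against 11.1% of all tested genes. The exceptions were ATF4, where cow 3 came next after cow 1, CHAC1, where cow 1 changed by -0.38, and TRIB3, where cows 1 and 4 were all but equal at 2.17. The median change over the 9 genes was 1.37 in cow 1, 1.22 in cow 2, -0.032 in cow 3, 0.68 in cow 4, -0.093 in cow 5 and -1.62 in cow 6, whereas the median over all tested genes stayed between -0.053 and 0.0081 in every cow. The order also followed the slides. The mean of the 2 cows fell from slide 1 to slide 2 to slide 3 for 9 of 9 tested genes, against 22.9% of all tested genes, for example from 1.30 through 0.25 to -1.04 for ASNS and from 2.49 through 1.30 to -2.18 for TRIB3. The medians of cows 1 and 2 on slide 1 were alike, whereas those of cows 3 and 4 and of cows 5 and 6 differed. Each slide held its own cows, so slide and cow cannot be told apart.

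Cow 6 entered the restriction with a high level of several of these transcripts and ended it with a low one. It had the highest CONT level for 4 of the 9 genes and the lowest REST level for 7, where 22.1% and 15.1% of all tested genes did so. Cow 4 had the highest CONT level for the other 5 genes and was not the lowest in REST for any. Of the genes called without cow 6, 79.1% (831 of 1051) moved the same way in cow 6, and the same share for the other cows, each left out in turn, was 73.7 to 96.0%. Cow 6 stayed lowest for 9 of 9 genes after median shift, quantile normalization and both background corrections with normexp, under which the TRIB3 change in cow 6 was -2.18 to -3.46 and no tested gene had a larger spread than TRIB3. Each cow gave 1 array in each period, so the change of a single cow has no replicate error, and the part that its biopsy or its array plays in it was not tested.

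Other genes of the pathway, taken from lists by role, were then read in the same way. A further list of ATF4-dependent transcripts held 32 genes, of which 23 were tested. ATF5, GDF15, FGF21, STC2, CTH, GPT2, ALDH1L2, SLC7A11 and SLC7A1 were not. Of the 23 tested genes, 0 were called higher and 1 lower, against 6.95% and 9.27% of all tested genes. The one called was CEBPB, a partner of ATF4 in binding DNA, which fell by 0.32 (SE 0.085, adjusted p = 0.0555, lower in 6 of 6 cows, as 10.8% of tested genes were). The median change of that list by cow was 0.45, 0.50, -0.022, 0.39, -0.14 and -0.68 for cows 1 to 6, and the lowest change was in cow 6 for 17 of the 23. Examples, chosen after their values were seen, are the transport subunit SLC3A2 (1.15 in cow 1, -0.83 in cow 6), the mTORC1 inhibitor DDIT4 (1.05 and -1.03) and PCK2, which makes phosphoenolpyruvate in mitochondria (1.53 and -1.28), none of them called.

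The counts were larger without the dim slide 3, an alternative chosen after seeing the data, which also removes cow 6 and with it the lowest changes. In the remaining 4 cows TRIB3 was called (1.90, adjusted p = 0.0533) beside DDIT3 (1.34, adjusted p = 0.0229), and 8 of 26 further ATF4-dependent transcripts were called higher, namely ATF3, CEBPG, DDIT4, CBS, XPOT, SLC3A2, SLC38A2 and SLC1A5, where 4.58% of all tested genes were. CEBPB was not called in these cows. With cow 6 alone left out, 2 of the ATF4-dependent transcripts were called higher, ATF3 and CBS, against 5.33% of tested genes, and DDIT3 was still the one called of the 9.

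Of 13 listed aminoacyl-tRNA synthetases, which load amino acids onto transfer RNA, all but VARS1 were tested. None of these 12 was called, where 6.95% of all tested genes were called higher and 9.27% lower, and their median change was 0.14. By cow their median was 0.58, 0.52, 0.17, 0.23, 0.034 and -0.59 for cows 1 to 6, and 9 of 12 were lowest in cow 6. GARS1, the glycine enzyme, ranged from 1.13 in cow 1 to -1.47 in cow 6, and was likewise picked after its values were seen. Of 18 listed genes of the eIF2 kinases and the eIF2 phosphorylation cycle, which act upstream of ATF4 translation, 13 were tested. The kinase gene EIF2AK4 (also called GCN2), GCN1, EIF2B5, PPP1R15A and PPP1R15B were not among them. Of the 13 tested genes 0 were called, and their median stayed between -0.13 and 0.092 in every cow. None of these genes was above the 95th percentile of spread, whereas 7 of the 23 ATF4-dependent transcripts and 4 of the 12 synthetases were. Arrays measure the transcripts of these kinases and not the phosphorylation of eIF2.

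The same background shares, 6.95% higher and 9.27% lower, apply to the remaining lists. Of 17 listed further enzymes of serine, glycine and one-carbon metabolism, 10 were tested, among them MTHFD2, which the list of ATF4-dependent transcripts also holds. Of these 10, 1 was called, SHMT1, the cytosolic relative of SHMT2, which rose by 0.41 (SE 0.13, adjusted p = 0.0844, higher in 5 of 6 cows). The median of the 10 lay between -0.18 and 0.055 in every cow. Among 7 tested relatives of the gene families, CEBPA fell by 0.38 (a change of -0.38, SE 0.11, adjusted p = 0.0658, lower in 6 of 6 cows), beside CEBPB and SHMT1, which this list shares, so that 1 of 7 was called higher and 2 lower. Their median by cow was 0.39, 0.43, 0.083, 0.37, 0.089 and -0.21 for cows 1 to 6, highest in cow 2 and lowest in cow 6. This list also shares CEBPG, not called, with the ATF4-dependent transcripts, so its order by cow rests in part on genes already described. Of 18 listed genes of the ATF6 and XBP1 branch, which serves protein folding in the endoplasmic reticulum, all but ATF6 and ERN1 were tested. These 16 held none called. They also differed between cows, with 7 of 16 above the 95th percentile of spread, but in another order, at medians of -0.56, -0.025, 0.39, -0.63, 0.76 and -0.095 for cows 1 to 6, with 1 of 16 lowest in cow 6. HSPA5, the chaperone BiP, chosen after its values were seen, changed by -1.03 in cow 1 and 1.20 in cow 5. CEBPB, CEBPA and SHMT1 were not called when the cow was left out as a block, at adjusted p-values of 0.235, 0.186 and 0.226.

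**Figure D4:**
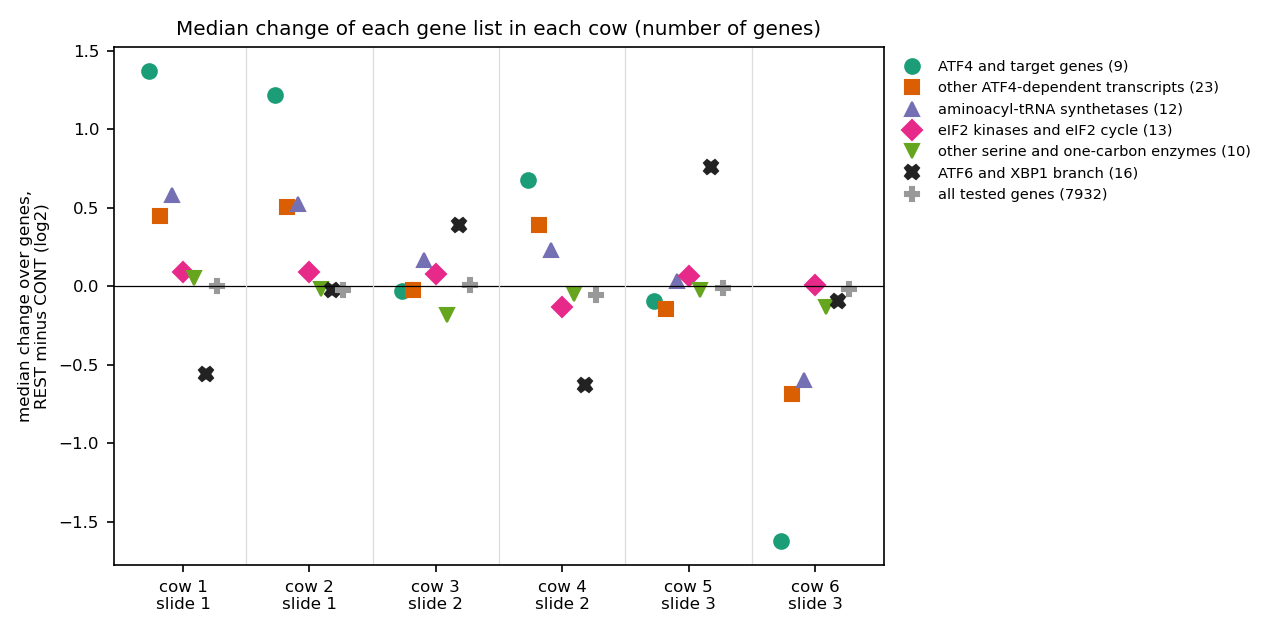
Median change (y axis, REST minus CONT, log2) of each gene list in each cow (x axis, with its slide), with the number of tested genes in the key and the median of all tested genes in grey. The 3 lists of ATF4 targets and synthetases are highest in cows 1 and 2 and lowest in cow 6 (medians of -0.59 to -1.62 there), the eIF2 genes stay near 0, and the ATF6 and XBP1 branch is highest in cow 5 at 0.76.

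Among the genes whose change by cow lay nearest to that of DDIT3, by mean absolute difference over 6 cows in a search of 7338 genes above background on all arrays, were the Notch ligand DLL4 (0.275 log2 units apart, mean change 1.01, adjusted p = 0.0193) and the chemokine receptor CXCR4 (0.309 apart, mean change 0.80, adjusted p = 0.0254). Both were called higher by limma, which follows from their choice by likeness to DDIT3 and adds nothing to it. For ASNS, a search added after values were seen gave APOLD1 at 0.209, GARS1 at 0.296 and SPRY1 at 0.297, none of them called.

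Of 10 luminal epithelial markers 8 were tested, among them the milk protein genes CSN3 and LALBA, while CDH1 and the casein CSN2 were not. The 8 had a summed level, in units of each array's 75th percentile, of 2050 to 2759 in CONT and 1699 to 2259 in REST. It was lower in 6 of 6 cows. That sum is carried mainly by the milk proteins CSN3 and LALBA, while 5 of the 8 markers had a mean change above 0. The keratins KRT8 (0.72, adjusted p = 0.0089) and KRT18 (0.52, adjusted p = 0.0680) were called higher and the casein CSN3 (-0.28, adjusted p = 0.0776) lower, none of them without the cow as a block (adjusted p = 0.133, 0.508 and 0.226). The median change of the luminal markers by cow was 0.33, 0.34, -0.16, 0.31, -0.015 and -0.028 for cows 1 to 6, high in the cows where the ATF4 targets were high but not low in cow 6. All 6 fibroblast markers were tested and none was called, with summed levels of 34.2 to 63.9 in CONT and 26.4 to 73.5 in REST and a median of -0.95, -0.71, 0.52, 0.14, -0.16 and -0.69 by cow. Of the 10 leukocyte markers 8 were tested (sums of 9.76 to 12.2 and 10.4 to 13.3), of 8 myoepithelial markers 7 (92.1 to 174 and 77.4 to 159), of 6 endothelial markers 6 (10.1 to 13.4 and 11.9 to 14.4, higher in 6 of 6 cows), and of 6 adipocyte and 4 erythrocyte markers 1 each. Called among them were the endothelial VWF (0.54, adjusted p = 0.00726), the myoepithelial KRT17 (0.44, 0.0789), ACTA2 (-0.38, 0.0857) and CNN1 (-0.53, 0.0323), the adipocyte FABP4 (-0.35, 0.0447) and the leukocyte CD3E (0.35, 0.0781), of which VWF alone was also called without the cow as a block (adjusted p = 0.0539). VWF also had the highest signal and the largest mean change of the 6 endothelial markers, and so weighed most in their sum. A mean change above 0 was seen for 5 of them, but CDH5 hardly changed (0.028) and KDR had a mean of -0.15. The defining adipocyte markers ADIPOQ, LEP and PLIN1 and the erythrocyte marker HBB did not pass the filter on dim probes. The part of cell type shares in the changes of the ATF4 targets was not tested.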

How the data were processed

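Total RNA from 12 mammary biopsies was labelled with Cy3 and hybridised to 3 slides of bovine Agilent 4 × 44K arrays, 1 array per cow and period. The deposited scanner files of the authors hold background-subtracted processed intensity per spot, made with Agilent Feature Extraction 11.0.1.1 per the file headers, and the deposited value table held the same intensity values, within a relative difference of 1e-06, in all 45220 spots of every array. Array depth has no count, and the number of animals limits the precision.

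Control spots and 1 to 13 spots per array marked as outliers were left out, repeat spots of 50 probes were averaged, and each array was shifted by its 75th percentile after log2, as the methods state. Probes were named through RefSeq transcript accessions, which gave a symbol to 27131 of 43653 probes (62.2%). No genome or probe sequence was used here, so a planned search of promoters for a motif was not run. The adjusted p threshold of 0.1 is that of the methods, which name a moderated test and state no pairing.

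The fit used limma 3.58.1 in R 4.3.3 (lmFit and eBayes) with the animal as a fixed block, and the code was tested on simulated data. The labels name the animal of each array, and deviations from the group means correlated at 0.356 to 0.574 between the arrays of a cow and at -0.326 to 0.135 between different cows. Alternatives covered the block, slide, scaling, normexp background correction on median signals (offset 50), the filter, the test, and each cow left out. Tables and plots used Python 3.11.15, pandas 2.3.3, numpy 2.4.6 and matplotlib 3.10.9. The genes and lists, and the rule naming called genes of each list (at most 4) and the 3 genes nearest to the gene with the largest change, were chosen with earlier results of these data known. Of the latter, 1 is not reported here.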

Additional observations from a re-analysis of the deposited data

How the results depend on the processing

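DDIT3 was higher under every alternative (0.82 to 1.34 over fits of several slides), but its adjusted p was past 0.1 with no replicate block (0.95, adjusted p = 0.185), with slide as a block (0.95, 0.143), with no filter on dim probes (0.95, 0.148) and by the paired t-test without moderation over all probes (0.95, 0.138). Leaving out 1 cow gave 0.82 to 1.21, with the call lost without cow 1, 2 or 4, and slides 1, 2 and 3 alone gave 1.51, 1.16 and 0.17. Over all alternatives with a test its adjusted p was 0.0156 to 0.185. The cause was not tested. The count of called genes among the 9 was 0 with no replicate block, with slide as a block, without the filter and by the paired t-test, where 1 had an unadjusted p under 0.05 in each, was 0 to 1 with 1 cow left out, and was 2 without slide 3. Probes called higher and lower numbered 1402 and 1703 when paired, 307 and 530 with no replicate block, 799 and 1100 with slide as a block, 155 and 233 without the filter, where 43653 probes were corrected for, and 742 and 1111 by the paired t-test, and with 1 cow left out they ranged from 457 to 1471 and from 588 to 1782, lowest without cow 2. The median change of the 9 genes stayed above 0, at 0.0061 without cow 1 and 0.53 without cow 6.

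Some means reversed. SHMT2 (-0.017) was 0.081 with normexp and percentile shift, 0.014 with normexp and quantile normalization, 0.052 without slide 3, and -0.062 to 0.033 with 1 cow left out. With 1 cow left out, ASNS was -0.074 (without cow 1) to 0.53, below 0 also without cow 2 (-0.043), and PSAT1 was -0.085 (without cow 2) to 0.50, below 0 also without cow 1 (-0.057). CHAC1, -0.55 over all cows, was 0.081 without slide 3. None of these had an adjusted p under 0.1 in any alternative.

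Called genes in the other pathway lists were few, and none was called with no replicate block. Of ATF4-dependent transcripts 1 was called when paired, 0 with slide as a block or without the filter, 2 with cow as a random effect or after normexp with percentile shift, 3 with a trended robust eBayes, 0 to 2 with 1 cow left out and 8 without slide 3. Of eIF2 genes, 0 when paired, 1 with cow as a random effect, 3 and 1 were called after normexp with percentile shift and quantile normalization, 0 to 1 with 1 cow left out and 2 without slide 3. Of one-carbon enzymes 1 was called when paired, 0 after either normexp correction or without the filter, 2 over probes bright on all 12 arrays or with the trended eBayes, and 0 to 1 with 1 cow left out. Of synthetases 0 were called when paired, 0 to 2 with 1 cow left out and 3 without slide 3. Of family relatives 3 were called when paired, 0 without the filter, 1 after normexp with percentile shift or by the paired t-test, and 0 to 3 with 1 cow left out. Of the ATF6 and XBP1 branch 0 were called when paired, 0 to 1 with 1 cow left out and 1 without slide 3. On the dim slide 3, SESN2 was not well above background in either period, nor was CHAC1 in REST.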
